A study of Homo sapiens with 2 samples.

Results

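NEAT1 and MALAT1 are neighbouring genes of chromosome 11 whose long noncoding RNAs stay in the nucleus. Transcription there was followed with precision run-on sequencing, PRO-seq, in the established cell line K562, which comes from a human chronic myelogenous leukaemia. The members were taken by gene name, and the locus was picked with earlier results of these data known. They are the windows named NEAT1, MALAT1 and AP000769.2, 3 of the 36814 windows in the deposited table. All 3 were found, and AP000769.2 is an antisense gene annotated over MALAT1. There were 2 libraries, 1 from K562 cells kept in 0.1% DMSO, a drug solvent, for 1 h and 1 from untreated K562 cells. No other treatment or genetic change is named in the labels, and both cultures were of the same line in the same serum-containing medium. In PRO-seq, permeabilised cells are given biotin-tagged nucleotides, which polymerases already at work on a gene add to their growing RNA, here for 5 min at 30 °C. The tagged RNA is then caught on streptavidin beads and sequenced. Each window spans 6000 bases around a gene start, and its value is a read count.

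NEAT1 RNA is the scaffold of paraspeckles, nuclear bodies that form where the RNA is made and that hold RNA-binding proteins such as NONO and SFPQ. Its short and long isoforms share a start, and the long one builds the paraspeckle. MALAT1 RNA gathers in nuclear speckles, which store splicing factors, and it is among the most abundant long noncoding RNAs of many cell types. Both long transcripts end without a poly(A) tail, since RNase P cuts before a tRNA-like structure and leaves a triple helix that protects the new end. TALAM1 is an antisense RNA made from the MALAT1 locus.

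Where the reads could fall decides what each window measures. On human genome build hg38, the NEAT1 window (ENSG00000245532.9, plus strand) spans chromosome 11, 65419774 to 65425773, and shares no base with another window. RefSeq places NEAT1 at 65422798 to 65445540 of GRCh38.p14, so the window held the first 2976 bases of the gene (13.1% of its length) and the sequence upstream. The MALAT1 window (ENSG00000251562.8, plus strand) spans 65494688 to 65500687, and the AP000769.2 window (ENSG00000270117.1, minus strand) spans 65495406 to 65501405. These overlap over 5282 bases. Reads in shared bases were absent from the table, as all 1154 windows wholly covered by others held 0 reads, including 321 windows with no overlapping window of their own strand. Each of the pair therefore kept 718 unshared bases, 12.0% of its window.

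The unshared bases of the MALAT1 window, 65494688 to 65495405, lie 3050 to 2333 bases upstream of the first RefSeq start of MALAT1 at 65497738. They lie outside the gene. The unshared bases of the AP000769.2 window, 65500688 to 65501405, lie inside MALAT1 (65497738 to 65506516) and inside TALAM1 (65499312 to 65507432). They begin 2950 bases downstream of the first MALAT1 start and 1643 bases downstream of the second, at 65499045. Relative to the start of AP000769.2 itself, which the window places at 65498405 on the minus strand, they lie 2283 to 3000 bases upstream. The count named AP000769.2 is therefore a count over 8.18% of the MALAT1 gene, and the count named MALAT1 is one over upstream sequence. Because overlaps were dropped whatever the strand, reads of MALAT1 and of its antisense partner cannot be told apart.

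**Figure D1:**
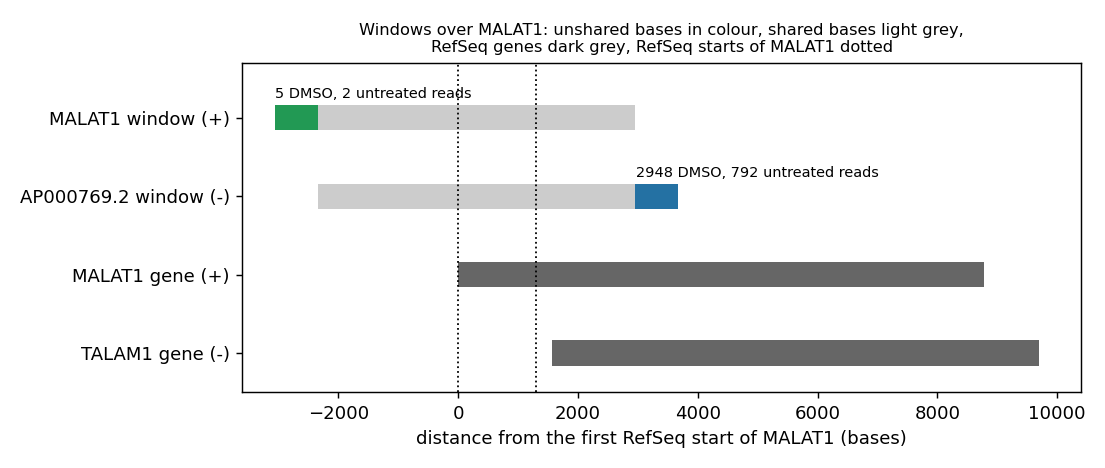
The MALAT1 and AP000769.2 windows are drawn against the RefSeq genes MALAT1 and TALAM1, with distance from the first MALAT1 start in bases on the x axis. The unshared bases of the AP000769.2 window (2948 DMSO and 792 untreated reads) sit inside both genes, and those of the MALAT1 window (5 and 2 reads) sit upstream of them.

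Both RefSeq starts of MALAT1 fall in the shared bases, so no read at either promoter entered the table. The 2 promoters are shown because they differ in sequence and lie within what the table leaves out. Each runs from 250 bases before the start to the first 50 bases of the transcript, plus strand, 5′ to 3′, from RefSeq on GRCh38.p14, and 2 of the 3 members have a RefSeq entry by name. Capitals mark every match, on either strand, to the motifs listed after them. The first lies at chr11:65497488-65497787 and the second at chr11:65498795-65499094.
MALAT1 first start: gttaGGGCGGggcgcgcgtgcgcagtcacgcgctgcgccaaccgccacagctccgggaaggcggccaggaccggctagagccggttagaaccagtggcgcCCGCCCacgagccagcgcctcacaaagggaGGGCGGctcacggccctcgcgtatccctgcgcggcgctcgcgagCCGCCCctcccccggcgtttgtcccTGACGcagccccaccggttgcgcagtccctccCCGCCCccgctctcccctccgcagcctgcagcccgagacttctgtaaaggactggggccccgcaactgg
MALAT1 second start: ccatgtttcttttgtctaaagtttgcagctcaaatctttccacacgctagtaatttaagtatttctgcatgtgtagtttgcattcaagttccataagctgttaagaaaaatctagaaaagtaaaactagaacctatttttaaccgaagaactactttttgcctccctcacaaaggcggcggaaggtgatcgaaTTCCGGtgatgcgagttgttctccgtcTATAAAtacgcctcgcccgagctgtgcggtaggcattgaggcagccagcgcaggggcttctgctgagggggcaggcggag

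The first promoter was 73.7% G and C and held 37 CpG dinucleotides, and the second was 46% G and C and held 14. The median of 35116 RefSeq promoters of 300 bases was 58.7% with 14 CpG dinucleotides. The GC box GGGCGG, bound by the SP1 family, matched 5 times at the first start and was not found at the second, and 45.0% of all promoters held it. The short site TGACG of CREB and ATF factors matched once at the first start (24.6% of promoters). The TATA box TATAAA, where the TATA-binding protein sits, matched once at the second start, from 30 to 25 bases upstream, and 11.5% of promoters held it. The ETS core CCGGAA matched once there on the minus strand, 57 to 52 bases upstream (17.2% of promoters). Neither window held a match to the other 6 motifs. These were the E-box CACGTG (7.26% of promoters), the heat shock element core GAANNTTC (6.77%), the full CRE TGACGTCA (1.85%), the GATA site AGATAA (10.3%), the hypoxia core ACGTG (21.4%) and the CCAAT box (34.6%). The full CRE contains the short site and the E-box contains the hypoxia core. A match is a description of letters, not of binding.

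The libraries held 4154920 reads with DMSO and 2136291 reads untreated. The 4 windows over ribosomal RNA repeats on chromosome 21 took 42.2% of the DMSO and 71.5% of the untreated reads, and 2249790 DMSO and 525322 untreated reads remained outside ribosomal and mitochondrial windows. CPM, counts scaled to the library total, therefore do not compare a gene between the libraries. A level of 1 CPM or more in both libraries was met by 17 of 21 erythroid, 4 of 16 lymphoid and monocytic and 3 of 26 neural marker windows, and by 34.7% of all windows. The neural markers summed to 4615 DMSO and 73 untreated reads, with 21 of 26 at 0 in the untreated library, 5 of these at 0 in both, where 18390 of all 36814 windows were at 0 untreated. GFAP had 514 DMSO and 0 untreated reads. The window named CDR1, over which RefSeq places only LINC00632, had 2985 and 0, a large part of the DMSO sum. Other neural marker windows were read in both libraries, SLC17A7 with 249 DMSO and 47 untreated reads, SOX10 with 49 and 15 and ENO2 with 81 and 9. The part of these neural marker reads in the values of NEAT1 and MALAT1 was not tested.

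The first part of NEAT1 was among the most densely read gene starts in both libraries. The NEAT1 window held 3343 reads with DMSO (exact 95% Poisson interval 3231 to 3458) and 783 reads untreated (729 to 840). These were 805 CPM with DMSO and 367 CPM untreated, or 0.149% of both libraries' reads outside ribosomal and mitochondrial windows. Reads carry no molecular identifiers, so all intervals cover counting error only. With 1 library per treatment no value has a replicate check, and fewer engaged polymerases per cell cannot be told from fewer cells with the gene active.

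The stretch inside MALAT1 was read at a level per length above that of NEAT1. The AP000769.2 window held 2948 reads with DMSO (2843 to 3056) and 792 reads untreated (738 to 849), nearly the reads of the NEAT1 window from 718 bases instead of 6000. Per kb of unshared bases this was 988 CPM with DMSO and 516 CPM untreated, against 134 CPM and 61.1 CPM for NEAT1. The density over AP000769.2 was thus 7.37 times that of NEAT1 with DMSO (interval 7.01 to 7.75) and 8.45 times untreated (7.65 to 9.34). The NEAT1 window covers as many bases upstream as downstream of the start. Had all of its reads fallen downstream, the ratios would be 3.68 with DMSO and 4.23 untreated. The table does not tell reads of finished RNA from those of RNA still being made, so these densities may hold both.

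The same length of DNA upstream of MALAT1 was nearly unread. The MALAT1 window held 5 reads with DMSO (1.62 to 11.7) and 2 reads untreated (0.24 to 7.22), or 1.68 CPM per kb with DMSO and 1.30 CPM per kb untreated. The stretch inside the gene held 589.6 times as many reads with DMSO (interval 252 to 1817) and 396 times as many untreated (109 to 3276). In both libraries the order per length was AP000769.2, NEAT1, MALAT1, and the counting intervals of the 3 did not overlap. A low count under the name MALAT1 is thus a count outside the gene.

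**Figure D2:**
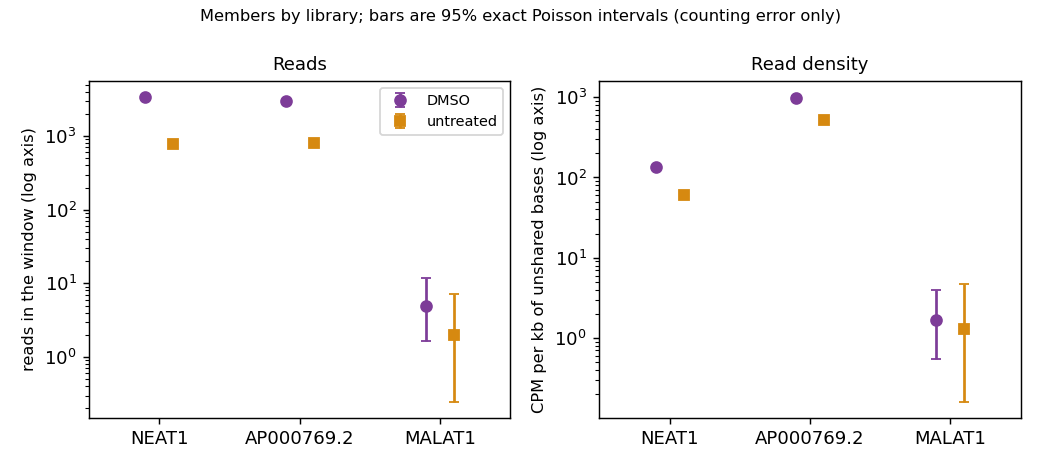
Reads per window (left, log axis) and CPM per kb of unshared bases (right, log axis) for NEAT1, AP000769.2 and MALAT1, with DMSO left of untreated and bars for 95% exact Poisson intervals. NEAT1 and AP000769.2 hold similar reads, AP000769.2 leads per kb with 988 and 516 CPM, and MALAT1 holds 5 and 2 reads.

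Among all windows with at least 200 unshared bases and outside ribosomal and mitochondrial windows, 32076 in all, AP000769.2 ranked 2 by mean CPM per kb, and NEAT1 ranked 18. AP000769.2 ranked 1 in the DMSO and 2 in the untreated library, and NEAT1 ranked 14 and 23. By CPM per window NEAT1 ranked 9 and AP000769.2 ranked 12. A short unshared stretch can raise a density, so AP000769.2 was also ranked among the 1784 windows with 500 to 1000 unshared bases, where it came first in both libraries. The MALAT1 window ranked 10142.

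The windows around AP000769.2 in that order mostly belonged to other abundant or repeated RNAs. MTRNR2L8, nearly identical to mitochondrial ribosomal RNA and therefore uncertain, stood above it with 688 CPM per kb with DMSO and 1732 CPM per kb untreated. Below it came MTRNR2L1, uncertain for the same reason, with 456 and 260. NEMF, which overlaps RN7SL3, a gene for the RNA of the signal recognition particle, had 384 CPM per kb with DMSO and 243 untreated. GSTA4, whose window holds RN7SK, the RNA that restrains the elongation factor P-TEFb, had 406 and 168. By distance over both libraries' log2 CPM per kb, the windows most like AP000769.2 were MTRNR2L1, NEMF, MTRNR2L8, TSPOAP1 and GSTA4, at distances of 1.49 to 2.07. This likeness rests on 2 libraries, and no window was closer than 1.49.

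Most windows ranked next to NEAT1 overlapped a gene for a small RNA, by whole windows with shared bases included. Above it came ADARB1 with 131 CPM per kb with DMSO and 88.3 untreated, AC093484.4, which overlaps the small nucleolar RNA host SNHG29, with 150 and 53.1, and NDUFAF3, which overlaps MIR191 and MIR425, with 123 and 79.1. Below it came GAS5-AS1, over the snoRNA host GAS5, with 120 and 66.2, the ribosomal protein gene RPLP2 with 113 and 64.3, and ANKRD30BL with 112 and 62.9. The RPLP2 value rests on 211 unshared bases with 99 DMSO and 29 untreated reads. The windows most like NEAT1 were GAS5-AS1, AC093484.4, RPLP2, ANKRD30BL and P2RY11, at distances of 0.20 to 0.27. ADARB1, with 131 CPM per kb, lay within the DMSO counting interval of NEAT1 (130 to 139), and RPLP2 and ANKRD30BL lay within its untreated interval (56.9 to 65.5). Of the 17 windows above NEAT1, 8 (47.1%) overlapped a RefSeq gene for a small noncoding RNA, against 1.94% of all ranked windows. None of the 3 members did. MIR612 lies inside NEAT1 but at 65444458 to 65444557, beyond the window.

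The members stood out from their surroundings. Within 500 kb to either side of NEAT1 there were 63 other windows, 28 of them with under 1000 unshared bases. The 3 members held 6296 of the 15738 DMSO reads of this region (40.0%) and 1577 of the 3422 untreated reads (46.1%). They also held 4.25% of the 148153 DMSO and 3.04% of the 51870 untreated reads of all chromosome 11 windows outside ribosomal and mitochondrial ones. Both totals include the uncertain MTRNR2L8 window, with 17162 DMSO and 22205 untreated reads. These chromosome shares therefore do not compare the libraries. Among the 43 neighbours with 200 or more unshared bases, the median was 6.26 CPM per kb with DMSO and 4.49 untreated. NEAT1 stood at 21.4 times this median with DMSO and 13.6 times untreated, and AP000769.2 at 158 and 115 times.

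None of these 43 neighbours reached NEAT1. The closest in the DMSO library was at 71.5 CPM per kb (MUS81, a DNA endonuclease gene), and NEAT1 was 1.88 times that level. In the untreated library the highest neighbour was at 29.0 CPM per kb, and NEAT1 was 2.11 times it. Between the NEAT1 and MALAT1 windows, which are 68914 bases apart, lay AP000769.6 with 1 DMSO and 0 untreated reads and LINC02736 with 1 and 1, each with 831 unshared bases. On the other side of NEAT1, FRMD8 had 149 DMSO and 28 untreated reads, SLC25A45 had 66 and 9, and AP000944.1 had 13 and 0. Beyond MALAT1, LTBP3, whose protein binds latent TGF-beta, had 74 DMSO and 35 untreated reads, and EHBP1L1 had 841 and 79. The windows between NEAT1 and MALAT1 were thus nearly unread, while bases outside any window were not counted.

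**Figure D3:**
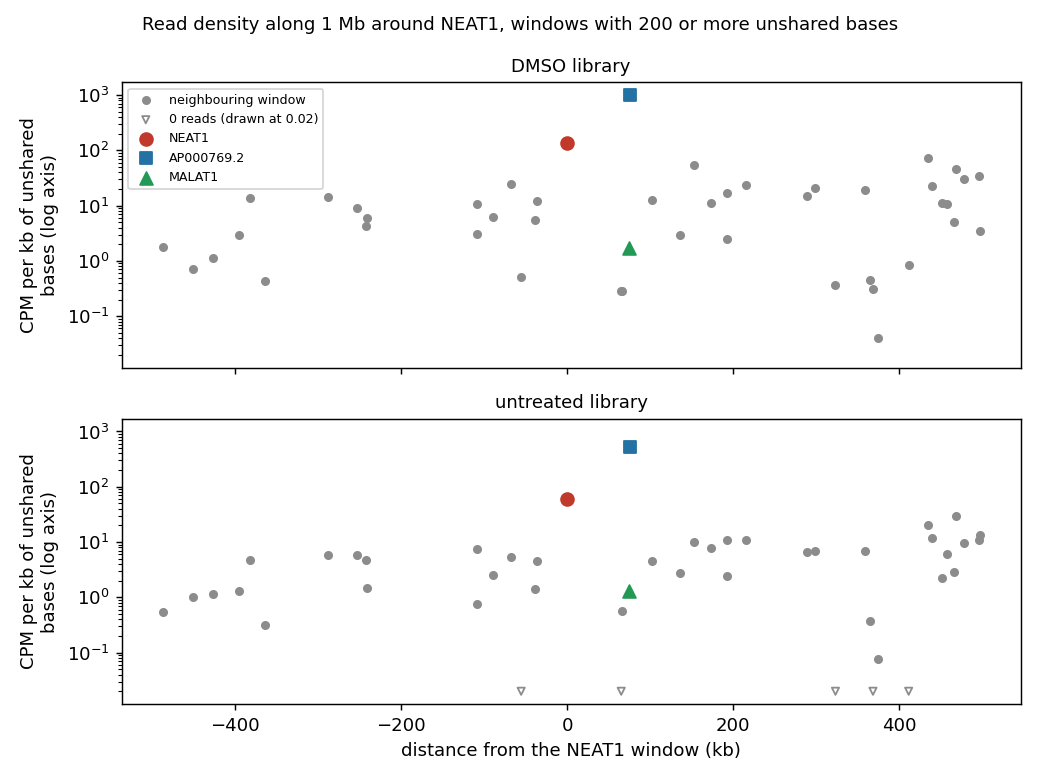
CPM per kb of unshared bases (log axis) against distance from the NEAT1 window in kb, for the DMSO library (above) and the untreated library (below). AP000769.2 (988 and 516) and NEAT1 (134 and 61.1) lie above all neighbours, and the MALAT1 window (1.68 and 1.30) lies among the low ones.

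Setting the DMSO library against the untreated one compares 1 library with 1 library. The 2 also differed in their share of ribosomal reads (42.2% with DMSO, 71.5% untreated) and in neural marker reads (4615 and 73). The window named CDR1 held 2985 of these DMSO and 0 of these untreated neural marker reads. An effect of the solvent therefore cannot be told apart from other differences between the libraries. The scaling used edgeR's TMM factors, under which equal levels give 3.81 DMSO reads per untreated read. Ratios are given relative to the median of the 6591 windows with a mean of at least 5 CPM and at least 100 reads in all, 17.9% of the table. That median stood at a log2 ratio of 0.30 under TMM and 1.27 under library totals. NEAT1 and AP000769.2 passed this floor and MALAT1 did not.

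Neither member past the floor was shifted 2-fold. NEAT1 had 4.27 DMSO reads per untreated read, which put it at -0.13 on the log2 scale against the median window (interval -0.24 to -0.02), at percentile 42.0 of all windows past the floor. AP000769.2 had 3.72 DMSO reads per untreated read, a log2 ratio of -0.33 (-0.44 to -0.21), at percentile 30.7. The middle 50% of windows spanned -0.44 to 0.43, so both lay inside it. Thus 0 of 2 members were past 2-fold, where 6.86% of windows lay at or past 2-fold upward with DMSO, 7.97% downward and 14.8% in either direction. MALAT1, with 5 and 2 reads, had a log2 ratio of -1.09 with an interval of -3.51 to 2.49, which spans more than 2-fold in both directions.

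The sign for NEAT1 depended on the reference. It was 0.02 relative to all windows with any read and 0.16 on the TMM scale without centring, where AP000769.2 stood at -0.03. The difference between the pair is free of the scaling. The ratio of AP000769.2 was 0.87 times that of NEAT1 (exact conditional interval of the odds ratio 0.78 to 0.98), or -0.20 on the log2 scale. The coefficient of variation between the libraries beyond counting error was 35.3% over windows past the floor. It holds any treatment effect and the offset of the median window under TMM, so it does not measure noise in this difference. With 1 library per treatment the difference between the pair has no replicate check. Among the 50 windows past the floor within 2-fold of NEAT1 in mean CPM, the median ratio was 0.03 and the middle 50% spanned -0.25 to 0.52, which holds NEAT1 and leaves AP000769.2 below it.

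Genes for paraspeckle proteins that passed the floor lay mostly within 2-fold of the median window, as did most of all windows past it. Against 34.7% and 17.9% of all windows, 21 of 36 reached 1 CPM in both libraries and 17 passed the floor. Of these 17, 2 lay 2-fold or more above the median window and 1 as far below it, against the shares of 6.86% and 7.97% given above. The 17 windows are too few to set these genes apart from those shares. The list median was 0.30 against 0 for all windows. SFPQ, a core protein that paraspeckles need, had 764 DMSO and 173 untreated reads (-0.09), and its partner NONO, named for its role, had 147 and 29 (0.10). HNRNPF, the RNA-binding protein gene of highest CPM here, had 1674 and 257 reads (0.48). AKAP8L had 858 and 93 (0.97), and the window named CIRBP, over which RefSeq places MIDN and not CIRBP, 830 and 229 (-0.37). CPSF6, a subunit of the cleavage factor whose activity favours the short NEAT1 isoform, had 367 and 24 reads (1.68, interval 1.11 to 2.37). SRSF10 stood at 1.07 and HNRNPH1 at -1.09. For 14 windows under 1000 bases were unshared, and HNRNPK (94 bases, 2 and 0 reads) and RBM14 (44 bases, 0 and 0 reads), also named for their roles, could hardly be read.

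Genes for speckle proteins and for processing of the RNA ends lay within 2-fold wherever they passed the floor. Of all windows, 34.7% reached 1 CPM in both libraries and 17.9% passed the floor. Of those past the floor, 14.8% lay at or past 2-fold in either direction. The 7 and 6 windows that passed here are too few to set these genes apart from that share. Of 25 nuclear speckle windows 10 reached 1 CPM in both libraries and 7 passed the floor, with a median of 0.15. U2AF2, which recognises the 3′ splice site region, had 846 DMSO and 145 untreated reads (0.31), SRSF3 had 697 and 116 (0.36), SRSF4 548 and 105 (0.15) and TRA2B 442 and 50 (0.91). TRA2A stood at -0.24 and SF3B1 at -0.01. Of 18 windows for RNase P, RNase Z and 3′ end factors, 9 reached 1 CPM in both libraries and 6 passed the floor, with a median of 0.26. The RNase P protein genes POP7 (468 and 105 reads, -0.07), POP5 (400 and 60, 0.50), RPP25L (329 and 69, 0.02) and POP4 (305 and 41, 0.65) led it. ELAC2, the RNase Z gene, stood at 0.55, and METTL16, whose protein binds the MALAT1 triple helix, at -0.13.

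Of 19 windows on a list of transcription factors, 10 reached 1 CPM in both libraries and 6 passed the floor, with a median of 0.62. Of all windows, 34.7% reached that level and 17.9% passed the floor. E2F1, a cell cycle factor, stood at 1.27, SP3 at 0.96, ATF4 at 0.40 and SP1 at 0.11. Only E2F1 of the 6 was past 2-fold, against 6.86% of all windows past the floor upward and 14.8% in either direction. HSF1, the heat shock factor, had 152 unshared bases and 5 DMSO against 1 untreated reads.

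In a chosen list of other long noncoding RNA genes, 31 windows had 200 or more unshared bases. Among these 31 only MIR17HG had a higher mean CPM per kb than NEAT1. The list is not complete. Windows off it that overlap such genes also ranked above NEAT1, among them TSPOAP1 over MIR142HG (rank 6) and AC093484.4 over SNHG29 (rank 16). Against 34.7% and 17.9% of all windows, 20 of the 38 listed reached 1 CPM in both libraries and 10 passed the floor. Of these 5 lay 2-fold or more above the median window and 0 as far below it, against 6.86% and 7.97% of all windows past the floor, and the list median was 0.78. MIR17HG, which carries the miR-17 microRNA cluster, had 4730 DMSO and 464 untreated reads (1.12), or 190 CPM per kb with DMSO and 36.2 untreated, above NEAT1 in the first library and below it in the second. SNHG7 had 2216 and 222 reads (1.09), SNHG12 1201 and 207 (0.31) and SNHG8 954 and 143 (0.51), all hosts of small nucleolar RNAs. KCNQ1OT1, the imprinted antisense RNA of chromosome 11, had 255 and 54 reads (0.00, interval -0.41 to 0.47), and EPB41L4A-AS1 stood at 0.20. All 10 lay above the median window, whereas NEAT1 and AP000769.2 lay below it. This was not tested. Among 77 windows past the floor with a LINC name, 0 were at least 2-fold higher and 18 at least 2-fold lower, against the same 6.86% and 7.97%, with a median of -0.50. The erythroid markers had a median of -0.36 over 10 windows past the floor, 1 of them 2-fold higher and 1 lower. Of 16 lymphoid and monocytic markers only 4 passed, with a median of -0.35 and none past 2-fold. The highest of the 4 was CD68 (0.35), whose window also overlaps EIF4A1 and the small RNA genes SNORD10 and SNORA67. Below the floor, CD14 had 40 DMSO and 0 untreated reads and CSF1R 17 and 0, while CD3D had 0 and 5. For the neighbours of NEAT1, 20 windows passed the floor, 2 at least 2-fold higher (EHBP1L1 at 1.18 and EFEMP2 at 1.01) and 1 lower (LTBP3 at -1.16), with a median of 0.11.

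**Figure D4:**
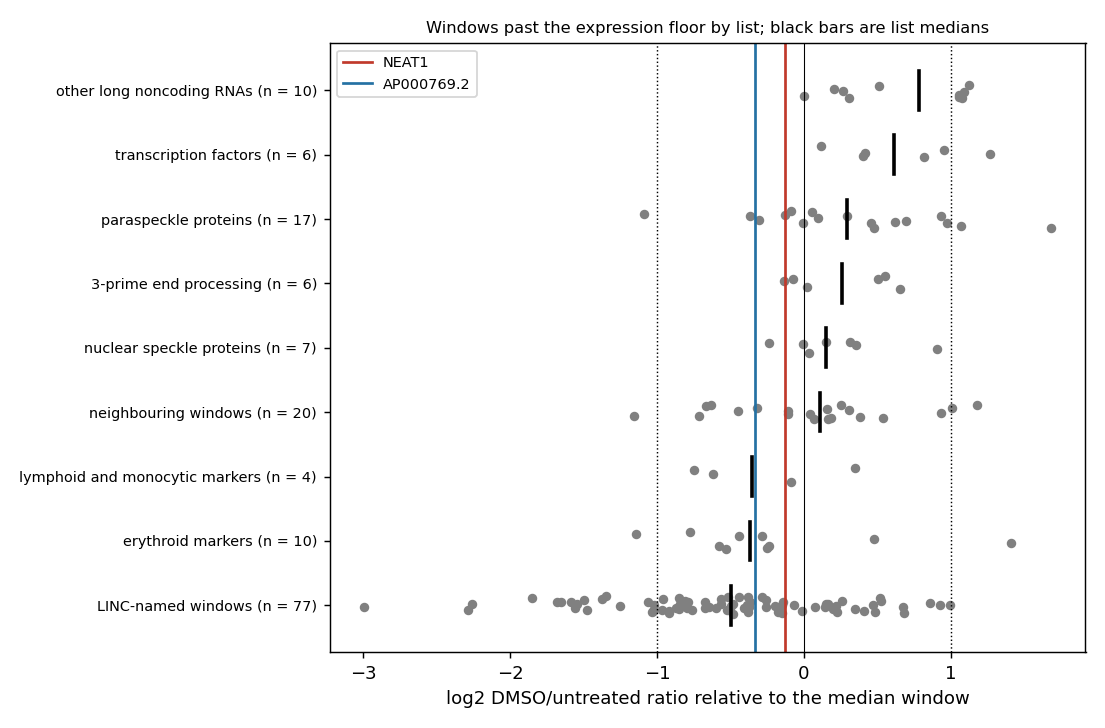
The log2 DMSO/untreated ratio relative to the median window, for windows past the floor in 9 lists, with list medians as black bars and dotted lines at 2-fold. NEAT1 (-0.13) and AP000769.2 (-0.33) lie left of the upper 6 list medians, which run from 0.11 to 0.78, and right of the lower 3, at -0.35, -0.36 and -0.50.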

How the data were processed

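PRO-seq was measured in 2 libraries, 1 per treatment. The authors deposited read counts over windows of 6000 bases on hg38, with Bowtie2 2.3.5 and featureCounts 2.0.1 named in the submitters' processing notes. The deposited TPM equalled CPM from the counts (tolerance 1e-06) and were not used further, nor was the authors' mean TPM. Counting options are not given in the sources used here, and the treatment of shared bases was read from the counts.

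From the counts, unshared bases, CPM per kb and TMM ratios (edgeR 4.0.16, R 4.3.3; prior count 0.5) were computed, the script being tested on simulated data. Intervals are exact Poisson, Clopper-Pearson or conditional (scipy 1.17.1) at 95%. No test across windows was possible with 1 library per treatment. Members and lists were chosen with earlier results of these data known. Named genes were the members, the 4 windows of highest mean CPM and the 2 highest and 2 lowest ratios of each list, adjacent windows, and windows nearest in rank or level. A window that this rule selects is not reported here. Alternatives covered scaling (DESeq2 1.42.0), floor, prior count, thinning, ranking and distance.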

Additional observations from a re-analysis of the deposited data

How the results depend on the processing

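No paired analysis was possible because there is only 1 library on each side, so that no replicate could be left out. A ranking over windows with 1000 or more unshared bases holds no AP000769.2 window. The choice of floor changes which windows set the median. Relative to windows with 1 CPM and 20 reads, any read, and 20 CPM and 400 reads, NEAT1 stood at -0.0037, 0.023 and -0.26 and AP000769.2 at -0.20, -0.17 and -0.46. Windows at least 2-fold higher with DMSO (452) then numbered 1488, 5241 and 70, those lower (525) 1471, 4898 and 108, and 293 were higher after thinning of the DMSO library. Without centring, TMM gave 950 higher and 226 lower and library totals 4333 and 31. NEAT1 ranked 9 by CPM per window. AP000769.2 ranked 12 by CPM per window, 7 with ribosomal and mitochondrial windows kept, 1 with DMSO alone and, in an alternative chosen after seeing the data, 1 among windows with 500 to 1000 unshared bases. The median of other long noncoding RNAs (0.78) was 0.47 at 1 CPM, 0.93 at 20 CPM and 0.51 without overlaps. Centring on windows of like CPM, also added later, left NEAT1 at -0.17 and AP000769.2 at -0.36. The cause of these differences was not tested beyond the change in windows counted. The 7 reads of the MALAT1 window allow no ratio to be resolved.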
